A study of Mus musculus with 12 samples.

Results

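The transcripts described here are those of 10 antioxidant and metabolic genes, Nqo1, Gclc, Gclm, Txnrd1, Srxn1, Slc7a11, G6pdx, Gsr, Me1 and Osgin1, which are known as targets of the transcription factor Nrf2. They were taken by gene symbol from a table of 53599 genes, in which 10 of 10 were found, and all 10 passed the filter on low counts that left 16210 genes for testing. RNA was sequenced from sorted liver cells of mice labelled WT. All mice had received AAV8-TBG-Cre, a virus whose hepatocyte promoter drives Cre recombinase, and 1 week later a diet with 0.1% DDC, a compound that injures bile ducts, for 8 weeks. Hepatocytes that had been marked, and their descendants, carry EGFP, and surface proteins sorted them further. The early group was EGFP+ Cd24- Epcam-, the intermediate group EGFP+ Cd24+ Epcam- and the full group EGFP+ Cd24+ Epcam+, names that mark the stage of conversion of hepatocytes towards a biliary state. The fourth group, called BEC for biliary epithelial cell, was EGFP- Epcam+, so its cells had not been marked by the hepatocyte promoter. Each group had 3 libraries. The BEC mice carry the same virus and diet in their labels as the others, and no group without the diet was analysed here. The age of the animals is not given in the sources used here.

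Nrf2, encoded by Nfe2l2, is held at a low level by Keap1, an adaptor that hands it to a ubiquitin ligase for degradation. Oxidants and electrophiles modify Keap1, and Nrf2 then accumulates, pairs with a small Maf protein and binds the antioxidant response element. Its targets reduce quinones, make and recycle glutathione, reduce thioredoxin and peroxiredoxins, and supply the NADPH that these enzymes use. Hepatocytes are known for a large output of glutathione and of enzymes that handle foreign compounds. Nrf2 acts largely through protein stability, which RNA levels do not show.

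The core letters of the antioxidant response element were looked for in the promoters, because the element is what the 10 genes are known to have in common. RefSeq promoter windows of the GRCm38.p6 build, running from 250 bases before to 50 bases after each annotated start, were found for 8 of the 10 genes, 11 windows in all. No window was used for Gclc or Gsr. The core was searched as TGACNNNGC or TGAGNNNGC on both strands. It was present in 7 of the 11 windows, each of a different gene, and in 27.8% of the 32851 windows of all genes. The AP-1 site, searched as TGACTCA or TGAGTCA, which are the reverse complements of each other, can overlap the core. It was present in 3 of the 11 windows, those of Srxn1, Osgin1 and Me1, and in 5.2% of all windows. A match is a description of letters, and its use in these cells was not measured. The Srxn1 window held 3 cores, and its first 240 bases, at chr2:152105274-152105513 on the + strand of GRCm38.p6, are given 5′ to 3′ along the gene. Capitals mark 2 cores, which begin 158 and 45 bases before the start. The further core lies after the start and is not printed.
Srxn1: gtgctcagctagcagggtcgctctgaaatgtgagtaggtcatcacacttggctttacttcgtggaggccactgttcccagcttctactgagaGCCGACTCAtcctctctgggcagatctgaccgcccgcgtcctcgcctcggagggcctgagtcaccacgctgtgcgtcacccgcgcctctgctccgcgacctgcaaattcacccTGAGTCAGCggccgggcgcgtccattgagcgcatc

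For a further 5 genes, the core is given in capitals with 10 bases on either side, 5′ to 3′ along the gene, so that genes with different expression can be set beside each other. The positions are chr3:50443692-50443720 (- strand) for Slc7a11, chr3:122245413-122245441 (+ strand) for Gclm, chr10:82859104-82859132 (+ strand) for Txnrd1, chrX:74428919-74428947 (- strand) for G6pdx and chr8:119437038-119437066 (+ strand) for Osgin1. Their cores begin 97, 134, 92, 57 and 99 bases before the start.
Slc7a11: taatgttggcGCTTTCTCAagctggagtt
Gclm: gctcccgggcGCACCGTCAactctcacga
Txnrd1: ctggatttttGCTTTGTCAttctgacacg
G6pdx: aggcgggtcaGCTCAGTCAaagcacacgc
Osgin1: aggggcccctGCTGACTCAcgcttatgaa
The core of Me1 spans its start, and the Nqo1 window held none, which says only that these letters are not in that window. A core was thus printed for genes whose RNA fell (Srxn1, Slc7a11, Gclm, Txnrd1), for a gene whose RNA rose (G6pdx) and for a gene with no call (Osgin1), as the levels below show.

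The 12 libraries held between 15112893 and 19731887 counts. Levels are given as CPM, the counts of a gene relative to the size of its library, with library sizes scaled by TMM, a method that assumes most genes are unchanged between libraries. The TMM factors differed with the group, from 0.652 to 0.672 in early, from 1.03 to 1.05 in intermediate and from 1.19 to 1.22 in full and BEC. The 50 most abundant genes took 33.5% ± 2.39 (SD, n = 3) of early counts and 15.6% ± 0.938 (SD, n = 3) of BEC counts. Mitochondrial transcripts took 7.63% ± 3.31 (SD, n = 3) of early counts, 4.27% ± 0.416 of intermediate, 2.33% ± 0.141 of full and 2.88% ± 0.470 of BEC counts. The labels were matched by the markers of the sort. Epcam was at 0.592 ± 0.250 CPM in early, 18.8 ± 7.24 in intermediate, 254 ± 41.1 in full and 866 ± 35.6 in BEC, while Cd24a went from 3.204 ± 2.16 in early to 444 ± 75.8 in intermediate and 1074 ± 128 in full. The hepatocyte marker Alb was at 73507 ± 1345 CPM in early and 1653 ± 233 in BEC. The labels do not say whether the 3 libraries of a group came from separate animals, so the p-values measure only the spread between these libraries.

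Most of the 10 genes stood highest in early cells and lowest in biliary cells, and the NADPH-making enzyme gene G6pdx ran the opposite way. Between intermediate and early, 8 genes fell and 1 rose by edgeR's quasi-likelihood test at an adjusted p under 0.05, against a background of 54.4% of all genes tested (28.7% higher, 25.7% lower). The median log2 fold change of the 10 was -0.94, and that of all genes was 0.06. Between full and intermediate, 6 fell and 1 rose, against a background of 40.7% (20.8% higher, 19.8% lower), with medians of -0.46 for the 10 and 0.01 for all genes. Between BEC and full, 2 fell and 2 rose, against a background of 21.3% (10.7% higher, 10.6% lower), with medians of -0.32 and 0.00. Without full replicate 3, 2 of the 10 were called between BEC and full, against 15.8% of all genes. Without early replicate 1, which enters the shared estimate of spread, 6 were, against 23% of all genes.

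The comparisons across several stages share their libraries with the steps between neighbours. Between full and early, 8 of the 10 fell and 1 rose, against 71.2% (39.1% higher, 32.1% lower) of all genes. Between BEC and early, 7 fell and 1 rose, against 73.1% (40% higher, 33% lower), and the medians were -1.69 for the 10 and 0.14 for all genes. Between BEC and intermediate, 7 fell and 2 rose, against 52.4% (26.3% higher, 26.2% lower). A test for any difference between the 4 groups called 9 of the 10, against 75.6%. These are bulk samples, in which fewer cells of a type and less RNA per cell cannot be told apart.

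**Figure D1:**
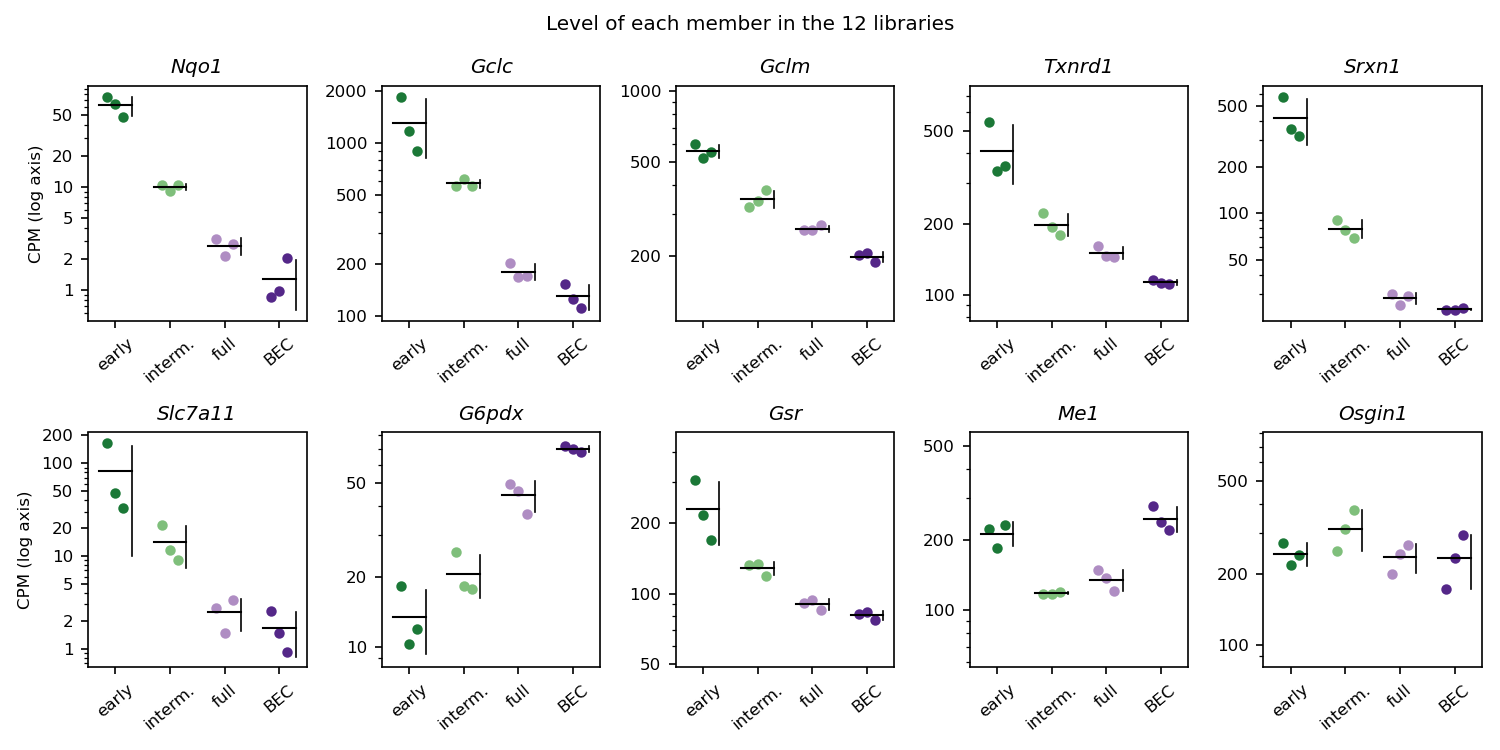
Level of each of the 10 genes in CPM (log axis) in the 4 groups, with 1 point per library, a bar at the mean and a vertical line of 1 SD either way. Nqo1, Gclc, Srxn1 and Slc7a11 drop across the stages, G6pdx climbs from a mean of 13.5 to 70.2 CPM, Me1 is lowest in intermediate, and the Osgin1 libraries overlap in all groups.

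Nqo1 encodes a quinone reductase and is widely used as a readout of Nrf2 activity. Its level in early replicates 1, 2 and 3 was 74.8, 64.1 and 48.0 CPM, and in intermediate replicates 10.6, 9.26 and 10.5 CPM. In the full libraries it was 3.15, 2.14 and 2.80 CPM, and in the BEC libraries 0.867, 0.978 and 2.06 CPM. No library of one group overlapped with those of the next. Nqo1 fell by 2.62 on the log2 scale from early to intermediate (SE 0.22, edgeR adjusted p = 3.76e-07) and by 1.90 from intermediate to full (adjusted p = 3.73e-05). The total difference between BEC and early was 47.4-fold lower (log2 fold change -5.57, SE 0.27, edgeR adjusted p = 3.80e-10). The last step was smaller, -1.04 (SE 0.30, edgeR adjusted p = 0.0221), and lost its call without full replicate 1 (-0.92, adjusted p = 0.0848), full replicate 3 (-1.02, 0.0609), BEC replicate 1 (-0.83, 0.0966) or BEC replicate 2 (-0.87, 0.0970), and in a fit of only the 6 libraries compared (-1.06, 0.0553).

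Srxn1 encodes sulfiredoxin, which restores peroxiredoxins that peroxide has over-oxidised. Its levels were 574, 356 and 319 CPM in early, 91.0, 78.0 and 69.5 in intermediate, 30.0, 25.4 and 29.0 in full, and 23.6, 23.6 and 24.1 in BEC. The groups did not overlap, and the full and BEC libraries lay close together. The gene fell at the first 2 steps, with a log2 fold change of -2.39 from early to intermediate (edgeR adjusted p = 1.68e-07) and of -1.498 from intermediate to full (adjusted p = 2.29e-05). From full to BEC the log2 fold change was -0.24, with a 95% interval from -0.64 to 0.15 (edgeR adjusted p = 0.433). BEC stood 17.5-fold under early.

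Txnrd1 encodes the cytosolic thioredoxin reductase, which passes electrons from NADPH to thioredoxin. Its levels were 544, 336 and 353 CPM in early, 222, 194 and 181 in intermediate, 162, 146 and 145 in full, and 116, 112 and 111 in BEC. The groups kept the same order without overlap, over a narrower span than Srxn1. Txnrd1 fell by 1.05 on the log2 scale from early to intermediate (edgeR adjusted p = 6.35e-05), and it was 3.64-fold lower in BEC than in early (adjusted p = 1.16e-07). The later steps were smaller. They were -0.40 from intermediate to full (edgeR adjusted p = 0.0538) and -0.42 from full to BEC (adjusted p = 0.0718). Both were called in the fit with the replicate number as a block, at -0.39 (edgeR adjusted p = 0.0108) and -0.42 (adjusted p = 0.0134). Both were also called without early replicate 1 (edgeR adjusted p = 0.00320 and 0.00404), and the former also without early replicate 2 (0.0340) or early replicate 3 (0.0465). With no filter (0.0203 and 0.00901) and with only the 6 libraries compared (0.00825 and 0.00168), edgeR's adjusted p was under 0.05 for both as well.

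Glutathione synthesis begins with cystine, which the cell takes up through the transporter encoded by Slc7a11. This gene showed the widest spread within a group of the 10. Its early libraries stood at 165, 48.2 and 33.1 CPM, the intermediate ones at 21.8, 11.5 and 9.06, the full ones at 2.72, 1.47 and 3.32, and the BEC ones at 2.55, 1.49 and 0.914. Full and BEC libraries overlapped, and all other groups were apart. Slc7a11 fell by 2.55 from early to intermediate (SE 0.53, edgeR adjusted p = 0.00102) and by 2.48 from intermediate to full (adjusted p = 0.00455) on the log2 scale. Without early replicate 1 the fall from early to intermediate was -1.53 (edgeR adjusted p = 0.00394). From full to BEC the value was -0.61, with a 95% interval from -2.15 to 0.93 (edgeR adjusted p = 0.644). BEC was 49.8-fold lower than early (log2 fold change -5.64, and -4.62 without early replicate 1).

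The transporter works as a pair with the heavy chain encoded by Slc3a2, which it shares with other transporters. The ratio of Slc7a11 to Slc3a2 counts, which does not depend on the scaling of the library, was 1.07, 0.598 and 0.478 in early and 0.287, 0.146 and 0.126 in intermediate. In full it was 0.0506, 0.0293 and 0.0653, and in BEC 0.0591, 0.0267 and 0.0166. The mean log ratio was 22.7-fold lower in BEC than in early, and those libraries did not overlap. A 2-sided exact permutation test gave p = 0.1, the smallest that 3 against 3 allows, and 0.12 when adjusted over the 6 pairs of groups. Full and BEC overlapped (exact permutation p = 0.4).

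Gclc and Gclm encode the catalytic and the modifier subunit of glutamate-cysteine ligase, which catalyses the rate-limiting step of glutathione synthesis. Gclc had the higher counts, at 1846, 1167 and 899 CPM in early, 564, 618 and 564 in intermediate, 203, 167 and 171 in full, and 153, 126 and 110 in BEC. Gclm stood at 596, 521 and 552 CPM in early, 323, 342 and 379 in intermediate, 256, 256 and 269 in full, and 201, 204 and 187 in BEC. Neighbouring groups did not overlap for either gene. Gclc fell by 1.16 on the log2 scale from early to intermediate (edgeR adjusted p = 0.000338) and by 1.69 from intermediate to full (adjusted p = 2.87e-05), and BEC was 10.1-fold lower than early. Gclm fell by 0.68 (adjusted p = 2.87e-05), 0.42 (0.00229) and 0.40 (0.00593) over the 3 steps in edgeR, and BEC was 2.82-fold lower than early. The last step of Gclc was -0.48, with a 95% interval from -0.92 to -0.03 (edgeR adjusted p = 0.137). The block of replicate numbers gave it a call (-0.49, edgeR adjusted p = 0.0290), as did the fits without early replicate 1 (-0.48, adjusted p = 0.0215), with no filter (-0.51, 0.00596) and with only the 6 libraries compared (-0.49, 0.0158).

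The ratio of the subunits was also taken, since it does not depend on the scaling of the library. Gclc had 3.10, 2.24 and 1.63 counts per Gclm count in early, and 1.74, 1.81 and 1.49 in intermediate, 2 groups that overlapped (exact permutation p = 0.3, unpaired). Within same-numbered libraries it was lower in intermediate in 3 of 3 pairs (paired exact permutation p = 0.25, the smallest that 3 pairs allow). The ratio was 0.793, 0.652 and 0.634 in full and 0.760, 0.615 and 0.591 in BEC. It was 2.43-fold lower in full than in intermediate with no overlap (2-sided exact permutation p = 0.1, adjusted over the 6 pairs 0.15). Full and BEC overlapped (p = 0.5, exact permutation, unpaired), and BEC was lower in 3 of 3 pairs (paired exact permutation p = 0.25). The ratio compares counts of transcripts of unequal length, so its change between groups can be read but not its size as subunits per subunit.

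**Figure D2:**
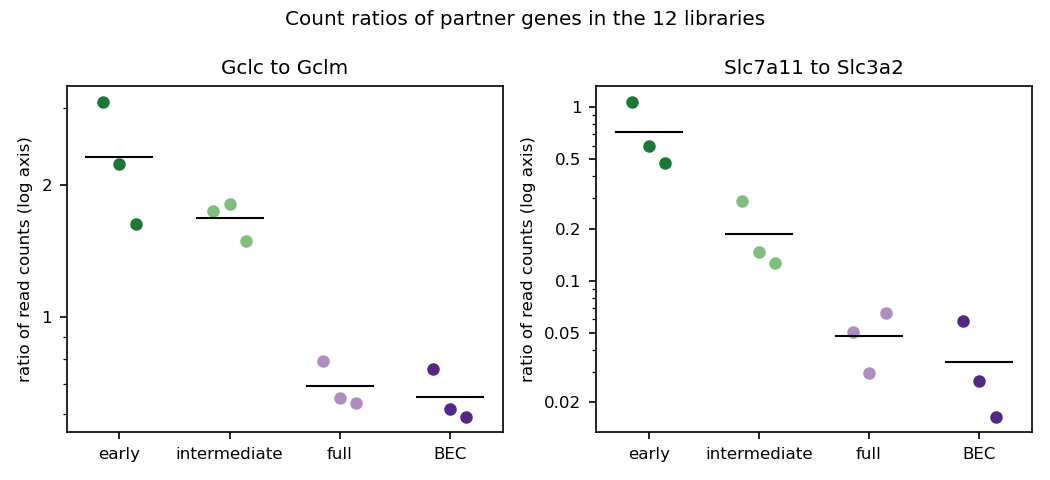
Ratios of Gclc to Gclm counts and of Slc7a11 to Slc3a2 counts in each group (log axes), with 1 point per library and a bar at the mean. The Gclc to Gclm ratio averages 2.32 in early, 1.68 in intermediate, 0.693 in full and 0.655 in BEC, and the Slc7a11 to Slc3a2 ratio falls from 0.716 to 0.0341.

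Gsr encodes glutathione reductase, which returns oxidised glutathione to its reduced form with NADPH. Its levels were 305, 216 and 169 CPM in early, 132, 133 and 119 in intermediate, 91.4, 93.9 and 84.7 in full, and 81.7, 83.4 and 77.1 in BEC. The groups were apart at each step. Gsr fell by 0.84 from early to intermediate (edgeR adjusted p = 0.000507) and by 0.51 from intermediate to full (adjusted p = 0.0202) on the log2 scale. The latter was not called without intermediate replicate 2 (-0.49, edgeR adjusted p = 0.0623) or full replicate 3 (-0.47, adjusted p = 0.0693). From full to BEC the value was -0.16 (edgeR adjusted p = 0.583). BEC was 2.84-fold lower than early (adjusted p = 1.34e-06).

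G6pdx, the gene of glucose-6-phosphate dehydrogenase, which opens the pentose phosphate pathway and makes NADPH, was the only one of the 10 to rise at every step. It stood at 18.2, 10.4 and 11.98 CPM in early, 25.5, 18.4 and 17.7 in intermediate, 49.9, 46.3 and 37.2 in full, and 72.3, 70.1 and 68.3 in BEC. Early replicate 1 overlapped with the intermediate libraries, and the later groups were apart. On the log2 scale G6pdx rose by 0.59 from early to intermediate (edgeR adjusted p = 0.0206), by 1.12 from intermediate to full (adjusted p = 0.00029) and by 0.66 from full to BEC (adjusted p = 0.0166). BEC was 5.18-fold higher than early (edgeR adjusted p = 8.82e-08). The first step was not called without early replicate 2 (0.43, adjusted p = 0.0958), early replicate 3 (0.52, 0.0746) or intermediate replicate 1 (0.42, 0.0974), or with only the 6 libraries compared (0.60, 0.0540), and the last not without full replicate 3 (0.54, 0.0854). In the GENCODE M21 annotation, exons of G6pdx overlap those of Ikbkg on the opposite strand over 418 bases. Whether the counting used strand is not given in the sources used here, so some of the G6pdx counts may belong to Ikbkg.

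Summed markers of macrophages and of B cells moved with G6pdx. The summed level of 10 macrophage genes ran from 24.9 to 26.9 CPM in early, 30.5 to 40.3 in intermediate, 66.0 to 94.2 in full and 133 to 158 in BEC, with none of the 10 at 0 throughout a group. Among them, Adgre1 was at 0.135 ± 0.234 CPM in early and 0.522 ± 0.486 in BEC, and Clec4f at 1.70 ± 0.660 and 3.69 ± 3.55. The levels of the other macrophage genes are not given singly here. That of 6 B cell genes ran from 0.162 to 1.18 CPM in early and from 15.7 to 45.5 in BEC. There 3 of the 6 had at most 3 counts in every library, and 2 of the 6 were at 0 in every library. Neutrophil genes summed to between 0 and 0.0914 CPM and T and NK cell genes to between 0.0482 and 0.419 CPM in BEC. The part of these cells in the G6pdx result was not tested.

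Me1 encodes the cytosolic malic enzyme, a further source of NADPH that also feeds fatty acid synthesis. Its levels were 221, 184 and 232 CPM in early, 118, 118 and 120 in intermediate, 148, 137 and 120.5 in full, and 279, 238 and 219 in BEC. Intermediate was the lowest group, and early and BEC overlapped. Me1 fell by 0.84 on the log2 scale from early to intermediate (edgeR adjusted p = 3.27e-05) and rose by 0.86 from full to BEC (adjusted p = 0.000104). Between these the value was 0.19 (edgeR adjusted p = 0.209). BEC and early differed by 0.21 (edgeR adjusted p = 0.118). With library totals alone, however, edgeR called Me1 higher in BEC than in early (1.07, adjusted p = 1.09e-06) and in full than in intermediate (0.39, adjusted p = 0.0143). Full was lower than early with TMM (-0.65, edgeR adjusted p = 0.000173) but not with library totals alone, where the sign turned (0.21, adjusted p = 0.105).

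Osgin1 encodes an oxidative stress-induced growth inhibitor. It stood at 272, 220 and 241 CPM in early, 252, 314 and 375 in intermediate, 199.97, 244 and 266 in full, and 173, 234 and 295 in BEC. All groups overlapped. By edgeR, 0 of the 6 pairs of groups were called, 2 had an unadjusted p under 0.05, and DESeq2 also called 0, with edgeR adjusted p = 0.12 at the first step, 0.10 at the middle step and 0.972 at the last. A test for any difference between the 4 groups gave an adjusted p of 0.138 in edgeR, but with the replicate block, with no filter, with library totals alone or without BEC replicate 3 this test called all 10 genes, Osgin1 included. Those 4 fits called 77.9%, 43.3%, 84.4% and 72.4% of all genes. With no filter on low counts, edgeR called Osgin1 higher in intermediate than in early (0.40, adjusted p = 0.0167) and lower than intermediate in full (-0.40, 0.0231) and in BEC (-0.44, 0.00692). With replicate numbers as a block, edgeR called full (-0.40, adjusted p = 0.0324) and BEC (-0.43, adjusted p = 0.0178) lower than intermediate. Without intermediate replicate 1, the difference between intermediate and early (0.50, adjusted p = 0.0459), that between full and intermediate (-0.54, 0.0412) and the one between BEC and intermediate (-0.56, 0.0273) were called by edgeR, the last also without BEC replicate 3 (-0.63, 0.0138). With library totals alone Osgin1 was higher in intermediate (1.02, edgeR adjusted p = 0.000253) and in BEC (0.81, adjusted p = 0.00119) than in early.

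**Figure D3:**
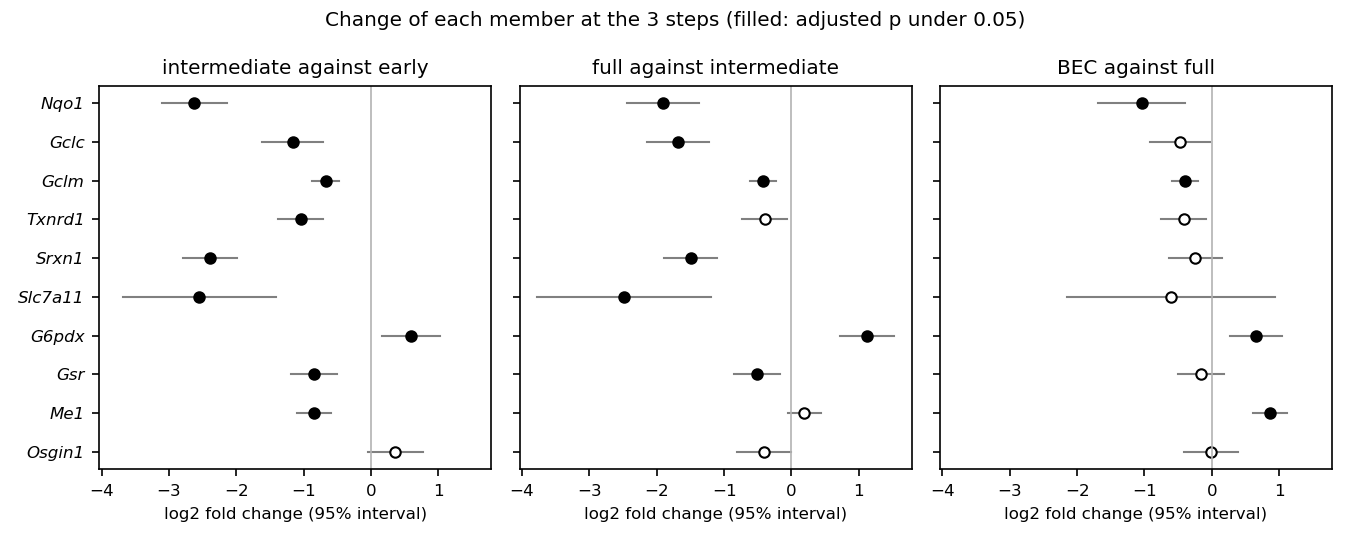
Log2 fold changes of the 10 genes at the 3 steps (intermediate against early, full against intermediate, BEC against full) with 95% intervals, filled where edgeR's adjusted p was under 0.05. Nqo1, Gclc, Srxn1 and Slc7a11 each have their larger changes in the first 2 steps, and G6pdx lies above 0 in all 3.

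The scaling of the libraries bears on the size of all these values and on the calls of the smaller ones. With library totals alone, the median log2 fold change over all genes was 0.72 between intermediate and early, 1.004 between BEC and early and 0.21 between full and intermediate. The share of calls that were higher then went from 52.8% to 85.6% between intermediate and early, from 54.8% to 80.3% between BEC and early, from 54.9% to 81.8% between full and early, from 51.2% to 72.6% between full and intermediate and from 50.1% to 66.5% between BEC and intermediate. Under this scaling, 5 of the 10 genes fell and 2 rose from early to intermediate, and 7 fell and 3 rose from early to BEC, where 69.4% and 82% of all genes were called. Nqo1, Srxn1, Slc7a11, Gclc and Txnrd1 kept their falls from early to intermediate, at -1.95, -1.72, -1.87, -0.49 and -0.38. Gclm (-0.01, edgeR adjusted p = 0.920), Gsr (-0.17, adjusted p = 0.332) and Me1 (-0.18, adjusted p = 0.182) were not called at that step. Gclm (-0.22, edgeR adjusted p = 0.0579) and Gsr (-0.31, adjusted p = 0.123) were not called from intermediate to full either. From early to BEC, the log2 fold changes with library totals were -4.70 for Nqo1, -4.76 for Slc7a11, -3.26 for Srxn1, -2.46 for Gclc, -0.99 for Txnrd1, -0.64 for Gsr, -0.63 for Gclm and 3.24 for G6pdx, all called. The folds given above for BEC against early thus depend on the scaling by more than 1.5 times.

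For the 8 genes called between BEC and early, the share of the log2 CPM difference already present at each stage was taken. In intermediate it was 57.6% for Srxn1, 55.6% for Txnrd1, 54.6% for Gsr, 46.7% for Nqo1, 45.3% for Gclm, 43.0% for Slc7a11, 33.6% for Gclc and 25.7% for G6pdx. In full it ran from 72.3% for G6pdx to 94.1% for Srxn1. The order was not tested, early and BEC libraries enter both ends of each share, and the shares rest on TMM and on all 3 early libraries.

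Levels can be compared between genes only per length, here as CPM per kilobase of merged exons in GENCODE M21. On this scale Gclc was the highest of the 10 in early (346 ± 130, SD, n = 3), followed by Srxn1 at 148 ± 48.8, and Osgin1 (91.4 ± 9.91), Gclm (88.4 ± 5.95) and Gsr (83.4 ± 25.2) came next, within the SD of Osgin1 of each other. The early level of Slc7a11 was 5.89 ± 5.18 per kilobase and that of G6pdx 4.39 ± 1.34, which differed by less than the SD of Slc7a11. In BEC the order had changed to Osgin1 (87.5 ± 22.9), Me1 (63.8 ± 7.95) and Gclc (34.4 ± 5.76), the last of these within its SD of Gclm (31.4 ± 1.49) and Gsr (29.3 ± 1.19), with Slc7a11 at 0.119 ± 0.0597. Osgin1 and Me1, neighbours in that order, differed by less than the sum of their SDs, and Me1 and Gclc by more. The 10 genes together took 0.232% ± 0.0596 of early counts, 0.190% ± 0.00399 of intermediate, 0.136% ± 0.000965 of full and 0.132% ± 0.000233 of BEC counts (SD, n = 3).

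Early libraries differed among themselves more than those of other groups for several of the genes. Early replicate 1 was the highest early library for 9 of the 10, all but Me1, while it was the highest for 38.7% of all genes tested. Its excess over the lowest early library was 4.98-fold for Slc7a11, 2.05-fold for Gclc, 1.81-fold for Gsr and 1.80-fold for Srxn1, and 1.14-fold for Gclm. The count of genes called between intermediate and early was the same without this library, 8 lower and 1 higher, where 50.6% of all genes were called. The fold changes at that step were then -2.47 for Nqo1, -2.08 for Srxn1, -0.82 for Gclc, -0.58 for Gsr and 0.87 for G6pdx.

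The transcripts of the proteins that control Nrf2 did not move in 1 direction. Nfe2l2 was lowest in early, at 152 ± 12.9 CPM, and stood at 213 ± 10.1 in intermediate cells, 227 ± 6.72 in full cells and 216 ± 25.8 in BEC (SD, n = 3). It rose by 0.49 from early to intermediate (SE 0.10, edgeR adjusted p = 0.000867), a step at which 8 of the 10 target genes fell. Keap1 went the other way, from 95.03 ± 11.6 CPM in early to 50.2 ± 6.03 in BEC (log2 fold change -0.92, edgeR adjusted p = 3.94e-06), but with library totals alone the difference between BEC and early was not called (-0.05, edgeR adjusted p = 0.666), and from early to intermediate its sign turned (-0.46 with TMM and 0.20 with totals). Sqstm1, whose product p62 binds Keap1 and is itself encoded by an Nrf2 target, was 1893, 1149 and 1018 CPM in early and 356, 415 and 405 in BEC. These groups were apart, and Sqstm1 fell by 1.79 (edgeR adjusted p = 1.37e-06).

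Among the partners and competitors of Nrf2, Maff, a small Maf protein gene, stood at 26.1 CPM in early, 78.7 in intermediate, 83.4 in full and 51.3 in BEC. It rose by 1.59 from early to intermediate (edgeR adjusted p = 1.34e-05) and fell by 0.70 from full to BEC (adjusted p = 0.0154). Bach2, a repressor that competes for similar sites, rose by 0.98 on the log2 scale at the first step (edgeR adjusted p = 0.000205) and fell by 1.62 at the last (adjusted p = 8.46e-06), at 5.86, 11.6, 13.9 and 4.53 CPM. Mafg was lower in BEC than in early with TMM (-0.74, edgeR adjusted p = 0.000187) and not with library totals alone (0.13). For Bach1 and Mafk no pair of groups was called with TMM. Scaled by library totals alone, edgeR called Bach1 higher in intermediate (0.70, adjusted p = 0.000695) and BEC (0.91, adjusted p = 4.80e-05) and Mafk higher in BEC (0.98, adjusted p = 0.000692) than in early. Of the 15 regulator genes, 6 were higher and 4 lower in intermediate than in early, and 7 higher and 5 lower in BEC than in early. These 10 of 15 and 12 of 15 stand beside the 54.4% and 73.1% of all genes called in those comparisons. With library totals alone the counts were 11 higher and 0 lower, and 11 higher and 1 lower, where 69.4% and 82% of all genes were called, most of them higher.

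**Figure D4:**
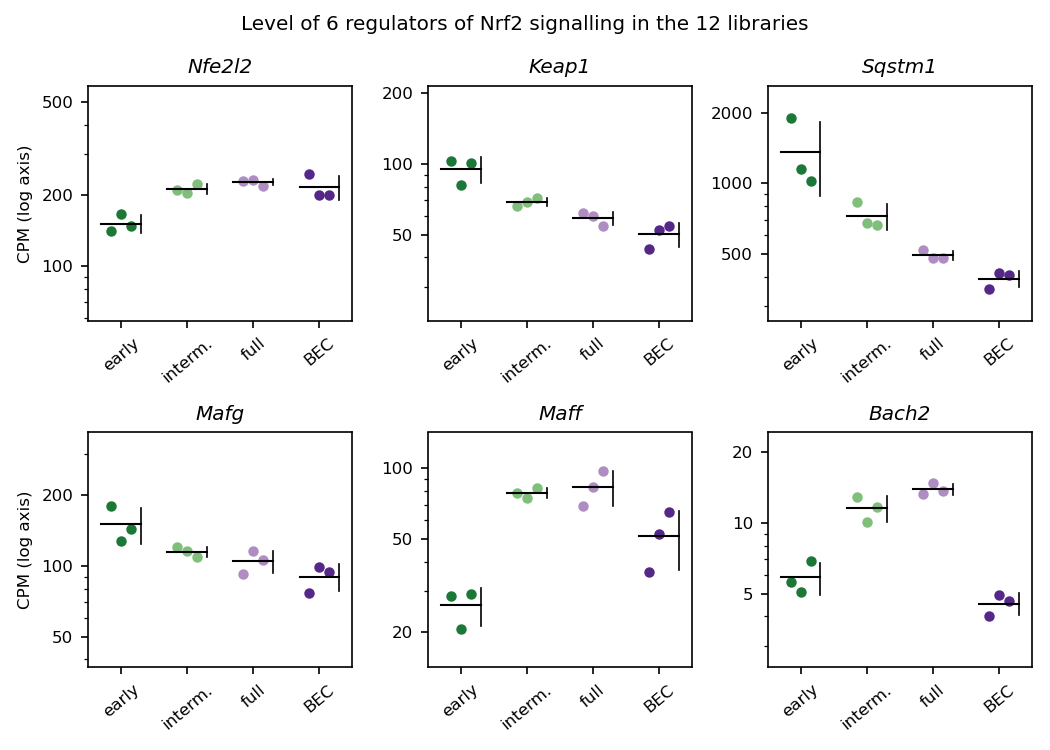
CPM of genes that regulate Nrf2 in the 4 groups, with 1 point per library, a bar at the mean and a vertical line of 1 SD either way. Nfe2l2 is at 152 CPM in early and between 213 and 227 in the other groups, while Keap1 and Sqstm1 are highest in early.

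The other genes of the same chemistry were taken from lists chosen by function. Of 24 further genes known as Nrf2 targets, 22 were lower and 1 was higher in intermediate than in early, and 19 fell and 3 rose from intermediate to full. Between BEC and full, 5 were lower and 4 higher. At these 3 steps 54.4%, 40.7% and 21.3% of all genes were called. The median log2 fold change between BEC and early was -2.13, against -1.69 for the 10 genes and 0.14 for all genes. These values rest on TMM. With library totals alone the median was -0.82 for the 10 genes and 1.004 for all genes. Of this list, Pgd (-0.95) then stayed lower in BEC than in early, while the signs of Tkt (0.19) and Taldo1 (0.26) turned. Ugdh, whose enzyme makes the sugar acid used in glucuronidation, fell from 1167 ± 168 CPM in early to 216 ± 13.4 in intermediate and 56.7 ± 4.96 in full. Some of these targets ran the other way. Akr1b8, an aldo-keto reductase gene, rose from 7.09 ± 2.82 CPM in intermediate to 22.4 ± 7.31 in full and 55.1 ± 9.92 in BEC, and Gpx2, a glutathione peroxidase gene of epithelia, rose from 7.32 ± 2.44 in full to 52.6 ± 5.56 in BEC. Abcc2, a canalicular export pump gene, fell by 2.35 from full to BEC (edgeR adjusted p = 2.23e-07).

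In the glutathione system, 20 of 22 genes were tested, and 13 were lower and 2 higher in intermediate than in early. The median of the list there was -0.49 with TMM and 0.17 with library totals alone, where 7 were lower and 8 higher and 69.4% of all genes were called. From early to BEC, 15 fell and 2 rose. The shares of all genes called were 54.4% and 73.1% in these comparisons. Cth, whose enzyme makes cysteine from cystathionine, fell from 370 ± 23.7 CPM in early to 36.3 ± 7.47 in intermediate and 4.99 ± 1.49 in full, next to the fall of Slc7a11, the route of cystine from outside. Cbs, which acts just before Cth, fell by 1.94 from early to intermediate (edgeR adjusted p = 4.25e-08). Gpx3, a secreted peroxidase gene, rose by 1.22 at that step (adjusted p = 0.00116), and Ggt1, which breaks glutathione down outside the cell, rose by 0.80 from full to BEC (adjusted p = 0.00244) in edgeR.

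In the thioredoxin and peroxide system of 19 genes, 14 were lower and 2 higher in intermediate than in early, and 16 were lower and 2 higher in BEC than in early, comparisons in which 54.4% and 73.1% of all genes were called. With library totals alone, 11 were lower and 5 higher at the first of these and 14 lower and 3 higher at the other, against 69.4% and 82% of all genes. Cat, the catalase gene, fell from 1188 ± 160.4 CPM in intermediate to 557 ± 66.6 in full and 251 ± 12.6 in BEC. Sod3, an extracellular superoxide dismutase gene, rose from 4.04 ± 0.762 in intermediate to 42.6 ± 5.21 in full and 112 ± 15.5 in BEC. Txnip, whose product binds thioredoxin, rose by 1.14 from intermediate to full (edgeR adjusted p = 0.00211). Msrb3 rose by 0.82 from early to intermediate (adjusted p = 4.17e-06) and fell by 2.07 from full to BEC (adjusted p = 1.11e-08) in edgeR.

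Among 18 genes of NADPH supply, 11 were lower and 1 higher in intermediate than in early, with a median of -0.65 with TMM. With library totals alone the median there was 0.02, with 7 lower and 6 higher, where 69.4% of all genes were called. From early to BEC 15 fell and 3 rose, which became 8 and 7 with library totals alone, where 82% of all genes were called. Of all genes, 54.4% and 73.1% were called in these comparisons with TMM. Me2, the mitochondrial malic enzyme gene, stood at 0.542 ± 0.374 CPM in early, rose to 23.0 ± 3.32 in intermediate and reached 61.7 ± 2.61 in full, across the step at which Me1 fell. Idh1, a cytosolic source of NADPH, fell by 1.56 from early to intermediate and by 1.22 from intermediate to full (edgeR adjusted p = 5.65e-07 and 1.09e-05). Taldo1 and Rpia, which act further along the pathway that G6pdx opens, rose by 0.70 and 0.59 from full to BEC (edgeR adjusted p = 0.000143 and 0.00996). Other genes of that pathway, named here after their values were seen, went against G6pdx from early to BEC, with Pgd from 365 ± 82.9 to 103 ± 6.15 CPM, Tkt from 542 ± 61.1 to 339 ± 7.57, Pgls from 97.7 ± 2.60 to 43.9 ± 2.61 and Taldo1 itself from 206 ± 28.3 to 135 ± 4.82, all called lower by edgeR with TMM, while with library totals alone Pgd (-0.95) and Pgls (-0.28) stayed lower and the signs of Tkt (0.19) and Taldo1 (0.26) turned. Rpia went with G6pdx from early to BEC, from 9.82 ± 1.92 to 22.9 ± 2.87 CPM. Among the lists, 6 genes stand in more than 1. Me3, a further mitochondrial malic enzyme gene that was picked out after its values were seen, had 0 CPM in every early library and 5.30, 4.24 and 4.39 CPM in BEC, so its fitted fold change, the highest point of that list in the plot of the lists, depends on the prior count and is not a size.

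**Figure D5:**
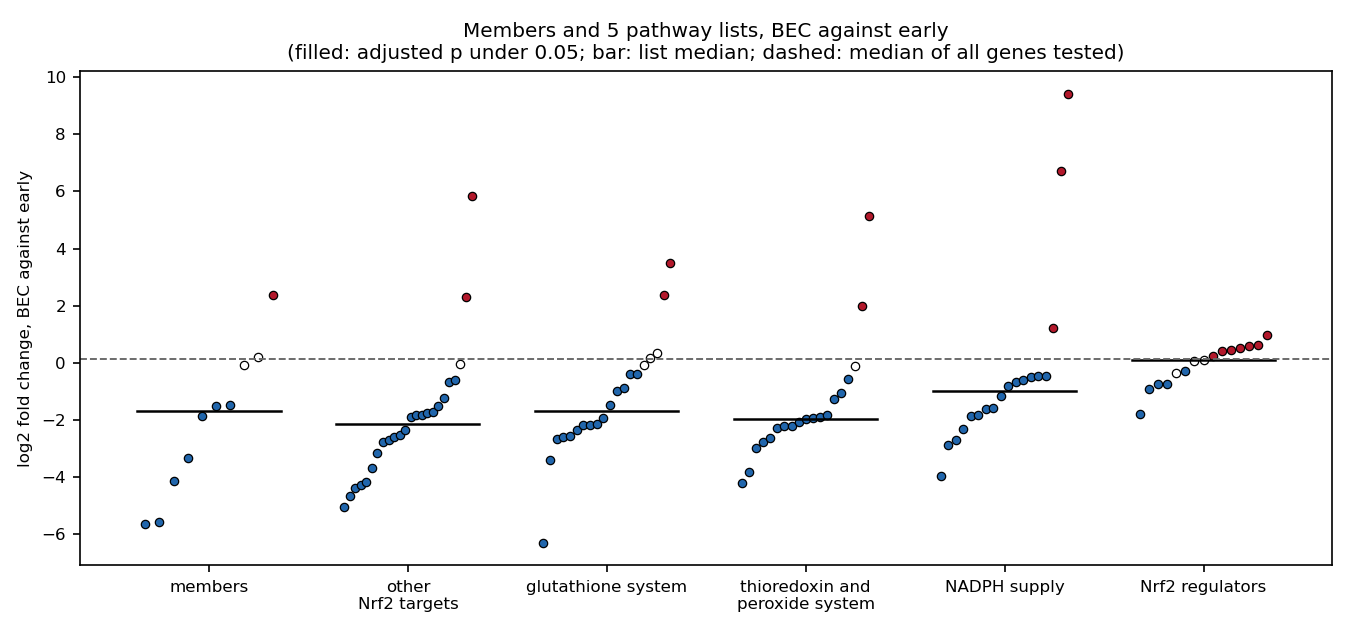
Log2 fold change between BEC and early for each gene of the lists, in red where called higher and blue where called lower, with a bar at the list median and a dashed line at the median of all genes. Medians are -1.69 for the 10 genes, -2.13 for other Nrf2 targets, -1.70 for the glutathione system, -1.97 for the thioredoxin and peroxide system, -0.99 for NADPH supply and 0.11 for the regulators.

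The 10 genes were set beside all other tested genes by the Pearson correlation of log2 CPM over the 12 libraries, as a description, since the libraries share their groups and any gene that falls by stage scores high. The nearest gene to Nqo1 was Apoe (r = 0.995), to Srxn1 Coasy (0.997), to Gclc Eef1a1 (0.992), to Gclm Acsf2 (0.994), to Txnrd1 Shfl (0.991) and to G6pdx Shisa5 (0.994). The r does not measure the size of a change. Eef1a1, for example, had means of 6140 CPM in early and 3643 in BEC, where Gclc had 1304 and 130. Slc7a11 and Gsr had the same nearest gene, Clpx (0.985 and 0.987). For Srxn1, 1603 of 16200 genes reached an r of 0.95, and for Nqo1 1468 did. Me1 and Osgin1 had few such neighbours. For Me1, 6 genes reached 0.95, with C1galt1 the nearest (0.962), and for Osgin1 none did, with Cyp26b1 the nearest (0.921), a gene whose group means ran from 0.177 to 0.741 CPM, where 3 counts in a library are 0.128 to 0.273 CPM.

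Markers of the cell identity that changes across the sort moved across the groups as well. The summed level of 16 hepatocyte genes ran from 114652 to 116285 CPM in early, 17464 to 21775 in intermediate, 3819 to 4890 in full and 2326 to 3012 in BEC, and none of the 16 was at 0. That of 14 biliary genes ran from 1001 to 1940 CPM in early and from 16670 to 20380 in BEC. Endothelial genes went from 15.2 to 24.2 CPM in early to 3.13 to 7.17 in BEC, erythroid genes from 18.7 to 33.3 CPM to 0.385 to 1.23, and stellate cell and fibroblast genes from 111 to 322 CPM to 62.5 to 107. Their part in the falls of the Nrf2 targets was not tested.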

How the data were processed

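Bulk RNA of 12 sorted cell samples was sequenced, 3 libraries in each of 4 groups, which were taken from the sample titles and the sorted markers. The authors deposited whole-number counts per gene symbol. Per the submitters' processing notes, STAR 2.7.10b, featureCounts 2.0.1, DESeq2 and the GRCm39 build were used. Which annotation was counted, whether strand was used and how multi-mapped reads were handled are not given in the sources used here, so counts of G6pdx (with Ikbkg), Gclm and Me1, whose exons overlap other genes in GENCODE M21, are uncertain. A second deposited table of scaled counts was not used.

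Counts were analysed in R 4.3.3 with edgeR 4.0.16 and limma 3.58.1, and with DESeq2 1.42.0 as an alternative, and drawn with Python 3.11.15 and matplotlib 3.10.9. The edgeR filter filterByExpr left 16210 genes, TMM scaled the libraries, and all 12 entered 1 quasi-likelihood fit with a term per group. The common biological coefficient of variation was 14.8%. P-values were adjusted by Benjamini-Hochberg over all genes tested, and calls were made under 0.05. SEs are the log2 fold change divided by the root of the F statistic. Log2 CPM used a prior count of 2. Count ratios within a library were compared by exact permutation. On counts simulated for intermediate against early (13362 genes tested), 94% of 100 genes changed by a log2 fold of 1 and 100% of 100 changed by 2 were recovered, and 4.90% of calls were false. All libraries were simulated from the early mean levels, with the same spread for every gene. Few genes were changed, with equal numbers of rises and falls. In the data 54.4% of genes were called at that step and the TMM factors differed by group, so these rates cannot be carried over to the data.

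Replicate numbers come from the titles. Libraries with the same number deviated together from their group means, with correlations of 0.121 to 0.293 (intermediate and early), 0.137 to 0.322 (full and intermediate) and 0.170 to 0.257 (BEC and full), so the numbers may pair the libraries at those steps. For the other pairs of groups the correlations were 0.0960 to 0.209 (full and early), 0.0442 to 0.145 (BEC and early) and 0.0839 to 0.175 (BEC and intermediate). The quasi-likelihood fit behind the calls had no term for the number. The number entered only the replicate block and the paired permutation tests. What a number marks is not given in the sources used here.

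The 10 genes, the lists and the tests were chosen with earlier results of these data known. Named genes were the 10, the regulators, up to 2 per direction and step in each other list (called, largest log2 fold change, higher group at 10 CPM or more) and the nearest gene to each of the 10. Alternatives were DESeq2, median-of-ratios factors, library totals, no filter, a mean of at least 50 counts, a minimum fold of 2, the 6 libraries compared alone, the replicate block, 1 count added to both genes of a ratio and each library left out. Promoter windows are RefSeq's, of GRCm38.p6, a different build from that of the counts, and were used only for their letters.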

Additional observations from a re-analysis of the deposited data

How the results depend on the processing

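The counts of genes called stayed within 1.5 times their values under DESeq2, other scaling factors, other filters, the 6 libraries alone and the replicate block, except as follows. With a minimum fold of 2 in edgeR, 3 of the 10 genes were called at the first step, 4 at the middle step and 5 between BEC and intermediate, against 17.1%, 11.9% and 19.8% of all genes. At the last step 0 were called (4.95% of all genes), 0 had an unadjusted p under 0.05, and edgeR and DESeq2 without that minimum called 4. The count between BEC and full ran from 2 to 6 with 1 library left out, and was 2 without full replicate 3, where 15.8% of all genes were called. The replicate block gave 9 called genes between full and intermediate (45% of all genes) and 6 between BEC and full (25.3%), and it added the calls of Gclc, Txnrd1 and Osgin1 given above. It changed no other call of the 10 genes between 2 groups, and in the test for any difference between the 4 groups it called 10 of 10 (77.9% of all genes). Of the values of the 10 genes with 1 library left out, 694 of 720 kept their direction and their side of the threshold. In many of these the library left out was in neither group compared. In the other alternatives 433 of 480 kept both, 26 lost a call, 17 gained a call and 4 turned sign.

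Signs turned as follows, on the log2 scale, and the cause was not tested. With library totals alone, Me1 was 0.21 and Osgin1 0.82 between full and early, and Osgin1 was 0.81 between BEC and early. Between intermediate and early, Keap1 was then 0.20, Rbx1 0.31, Mafg 0.28, Mafk 0.41 and Dpp3 0.50, and between BEC and early, Rbx1 was 0.58, Mafg 0.13, Bach2 0.49 and Dpp3 0.12. With no filter, Osgin1 was 0.0019 between full and early. For Bach1 between intermediate and early, DESeq2 gave -0.0183 and median-of-ratios factors -0.0187. With 1 library left out, Osgin1 ran from -0.22 to 0.16 between BEC and full, from -0.13 to 0.067 between full and early and from -0.26 to 0.12 between BEC and early. Mafk ran from -0.058 to 0.33 between BEC and early, and Bach1 from -0.12 to 0.20 between intermediate and early and from -0.12 to 0.21 between BEC and early. The log2 Gclc to Gclm ratio ran from -0.19 to 0.0172 between BEC and full, the latter without full replicate 1.

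With 3 libraries a group, an exact permutation test cannot go below 0.1, and Nqo1 and Slc7a11 rest on few counts in full and BEC.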

Other observations

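The standing of early replicate 1 was looked at in the other lists after its values for the 10 genes had been seen. It was the highest early library for 22 of the 24 further Nrf2 targets and for 10 of the 15 regulators, against 38.7% of all genes tested. In the glutathione system it was the highest for 10 of 20 genes, in the thioredoxin and peroxide system for 10 of 19 and in NADPH supply for 7 of 18. Hmox1, the heme oxygenase gene and an Nrf2 target, stood at 112, 31.3 and 26.5 CPM in early replicates 1, 2 and 3, and between 17.7 and 31.2 CPM in the other 9 libraries. Slc3a2, the partner of Slc7a11, stood at 154, 80.6 and 69.3 CPM in the early libraries. What sets this library apart was not tested.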
